A study of Homo sapiens with 16 samples.

Results

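CD44, the main cell-surface receptor for the polysaccharide hyaluronan, was followed together with 6 genes of the hyaluronan matrix. These were the lectican proteoglycans VCAN (versican), NCAN (neurocan), BCAN (brevican) and ACAN (aggrecan), and the hyaluronan synthases HAS2 and HAS3. The 7 genes were taken by symbol from a table of 19898 genes. All 7 were present, and all 7 were among the 16984 genes tested, which had a normalised read count of 10 or more in at least 4 of 16 libraries. The set was selected on the level of CD44, which was known to be lower in untreated 3D than in untreated 2D cultures. That comparison is therefore given as a description, with no test, and the comparisons that involve the toxin were tested.

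The RNA came from the human line SH-SY5Y, neuroblastoma cells with a neuron-like potential, here differentiated to dopamine-like neurons for 15 days. The groups were cells in a 3D silk-collagen scaffold with 1-methyl-4-phenylpyridinium (MPP), untreated cells in the same 3D scaffold, cells in 2D culture dishes with MPP, and untreated cells in 2D dishes, with 4 libraries each. MPP, a toxin taken up by catecholamine cells that inhibits complex I of the respiratory chain, was given at 1 mM on day 13 for 48 h. All groups are the same line under the same differentiation, and whether the libraries stand for separate cultures is left unsaid in the labels, so a p-value measures the spread between libraries, which may be technical. Cells in 2D were detached with the enzyme mix Accutase, whereas 3D scaffolds were placed in tubes whole, so culture and way of collection cannot be told apart. In bulk RNA, fewer cells expressing a gene and less RNA of it per cell cannot be told apart either.

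Library depth was 36554574 to 38414859 reads in MPP 3D, 24589435 to 34658873 in untreated 3D, 30399672 to 41813620 in MPP 2D and 34643854 to 46359070 in untreated 2D. Libraries of a group correlated with each other at r of 0.968 to 0.985 across genes. Replicate 3 of untreated 3D stood apart from the other libraries of its group on the 4th principal component, at 56.4 against -29.6 to 4.3. Replicate 1 of untreated 3D had the highest share of mitochondrially encoded reads in its group, at 7.97% against 3.83% to 4.51% in the other 3 libraries. Of 12 dopamine neuron markers, 6 were measured and 6 were not analysed here. TH, the rate-limiting enzyme of dopamine synthesis, averaged 4241 in MPP 3D, 5585 in untreated 3D, 596 in MPP 2D and 341 in untreated 2D. DDC, the next enzyme of that pathway, averaged 2851, 14143, 2301 and 2745 in the same order, and the vesicular transporter SLC18A2 6007, 3129, 1153 and 975. The dopamine neuron transcription factors were low, with means of 2.95 to 7.70 for NR4A2, 31.7 to 67.1 for LMX1B and 38.6 to 76.8 for PITX3. DBH, which turns dopamine into noradrenaline, was abundant in every group, with means of 94225, 115058, 128846 and 148729 in the same order.

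Hyaluronan is a long sugar chain made at the plasma membrane by the synthases HAS1, HAS2 and HAS3 and extruded into the space around the cell. Lecticans bind it through their N-terminal domain and carry chondroitin sulfate chains, and link proteins lock the complex. CD44 spans the cell membrane, binding hyaluronan outside and, through ezrin, radixin and moesin, actin inside. In brain, neurocan, brevican, aggrecan and versican with tenascin-R form the perineuronal nets around neurons, and versican and tenascin-C are more typical of developing tissue. CD44 and versican are also genes of migratory and mesenchymal cells, and neuroblastoma lines are known to hold both adrenergic and mesenchymal states.

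CD44, VCAN, NCAN and BCAN were all lower in 3D than in 2D, with or without MPP. The differences were largest for VCAN and CD44, at 10.9-fold and 7.91-fold with MPP, and NCAN and BCAN were 2.08-fold and 2.02-fold lower. MPP shifted the lecticans little by comparison. Within 3D it lowered VCAN, NCAN and BCAN, and within 2D it lowered NCAN and HAS3, while CD44 was not called in either culture. HAS1, the synthase outside the 7 genes, had the widest range of the 3 synthases and was highest in untreated 3D.

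CD44 (Entrez 960, GRCh38, chr11:35138870-35232402, plus strand) had normalised read counts of 37.9, 28.6, 46.3 and 28.5 in the 4 MPP 3D libraries. In MPP 2D the counts were 244, 306, 278 and 289. All 4 MPP 3D libraries lay far below all 4 MPP 2D libraries. CD44 was 7.91-fold lower in MPP 3D than in MPP 2D (35.3 ± 8.55 against 279 ± 26.3, SD, n = 4 each; log2 difference -2.97, SE 0.283, limma with Benjamini-Hochberg adjusted p = 2.61e-08). In 29 alternative analyses this log2 difference ranged between -3.11 and -2.84 and stayed past the threshold.

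The untreated libraries, which chose the gene, had CD44 counts of 10.6, 30.5, 33.7 and 26.9 in 3D and of 267, 195, 276 and 200 in 2D. The 2 cultures did not overlap here either. The means were 25.4 ± 10.3 in untreated 3D and 235 ± 43.0 in untreated 2D (SD, n = 4 each), a 9.24-fold difference and a log2 difference of -3.26 (SE 0.283). The lowest value belonged to replicate 1 of untreated 3D, the library of high mitochondrial share, and rested on 10 reads. Without that library the log2 difference was -2.90, and without replicate 3 it was -3.43.

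**Figure D1:**
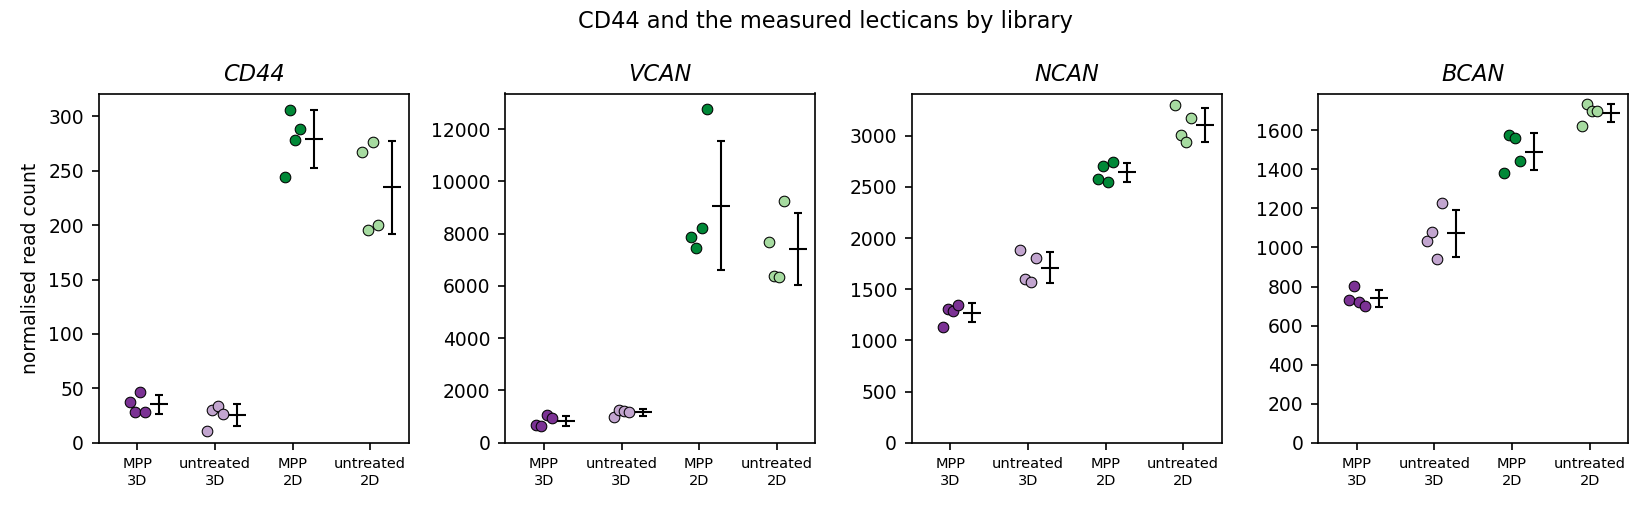
Normalised read counts of CD44, VCAN, NCAN and BCAN (vertical axes, each from 0) in the 4 libraries of each group (dots), with the mean ± SD beside them. For CD44 and VCAN the groups of one culture overlap and the cultures lie apart, while NCAN and BCAN form 4 steps, lowest in MPP 3D and highest in untreated 2D.

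VCAN (Entrez 1462, chr5:83471465-83582303, plus strand) encodes versican, the large lectican of provisional and developing matrix. In MPP 3D its counts were 679, 634, 1058 and 954, and in MPP 2D they were 7857, 7453, 8205 and 12754. Replicate 4 of MPP 2D was high among its group, yet the lowest MPP 2D library was still several times the highest MPP 3D library. VCAN was 10.9-fold lower in MPP 3D (831 ± 207) than in MPP 2D (9067 ± 2477, SD, n = 4 each; log2 difference -3.44, SE 0.164, limma adjusted p = 2.23e-13), and -3.27 without that replicate.

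Untreated 3D cultures held 993, 1259, 1228 and 1159 normalised reads of VCAN, and untreated 2D cultures 7665, 6386, 6326 and 9234. Without the toxin the cultures were again separate, by 6.38-fold (1160 ± 118 in 3D, 7403 ± 1368 in 2D, SD, n = 4 each; log2 difference -2.66, SE 0.164). The antisense gene VCAN-AS1 shares 453 exon bases with VCAN. It had 0 to 2 reads per library in MPP 3D, 0 in untreated 3D, 1 to 18 in MPP 2D and 4 to 15 in untreated 2D, far fewer than the 710 to 14494 reads of VCAN.

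NCAN (Entrez 1463, chr19:19211973-19252233, plus strand) encodes neurocan, a lectican made by neurons and glia. Its counts were 1133, 1308, 1291 and 1342 in MPP 3D and 2579, 2700, 2551 and 2744 in MPP 2D. No MPP 3D library came near the MPP 2D libraries. The mean was 2.08-fold lower in MPP 3D than in MPP 2D (1269 ± 92.7 against 2643 ± 93.3, SD, n = 4 each; log2 difference -1.06, SE 0.0764, limma adjusted p = 2.63e-10). Untreated libraries gave 1879, 1596, 1568 and 1802 in 3D, against 3304, 3008, 2938 and 3177 in 2D, a log2 difference of -0.86.

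BCAN (Entrez 63827, chr1:156641390-156659532, plus strand) encodes brevican, the small lectican of adult brain. It had 731, 802, 720 and 702 normalised reads in MPP 3D, against 1382, 1578, 1562 and 1440 in MPP 2D. The groups were separate, and BCAN was 2.02-fold lower in MPP 3D (739 ± 44.0 against 1490 ± 95.4, SD, n = 4 each; log2 difference -1.01, SE 0.0851, limma adjusted p = 3.75e-09). In untreated cultures it had 1032, 1081, 942 and 1230 in 3D and 1620, 1733, 1698 and 1700 in 2D, a log2 difference of -0.66.

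ACAN (Entrez 176, chr15:88803442-88875354, plus strand), the lectican of cartilage and of perineuronal nets, was close to the detection limit. Its recovered reads per library were 0 to 14 in MPP 3D, 0 to 18 in untreated 3D, 6 to 18 in MPP 2D and 0 to 10 in untreated 2D. A library at 0 reads allows up to 3 reads, counting error only. All 4 groups overlapped their neighbours in level, and no ACAN difference passed the test with all 4 groups and all libraries in the fit (3D against 2D with MPP, log2 difference -1.78, SE 1.01, limma adjusted p = 0.177). With only the 2 groups compared in the fit, ACAN was higher with MPP in 2D (log2 difference 2.10, limma adjusted p = 0.0475), and without replicate 2 of untreated 3D the difference of its MPP effects was called (-4.13, adjusted p = 0.0372).

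Of the 7 genes, 0 rose and 4 fell in MPP 3D relative to MPP 2D, while 38.9% of all genes tested were called in this comparison, 19% as higher and 19.9% as lower. The median log2 difference was -1.06 over the 7 genes and 0.0088 over all genes tested. In untreated cultures 5 of the 7 genes had lower values in all 4 libraries of 3D than in any of 2D and 0 had higher ones. This comparison chose the genes, and across all genes tested 39.7% did not overlap, 19.4% as higher and 20.3% as lower in 3D.

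The lecticans differed in how far they went down, so their mixture differed between cultures. Set per kilobase of exon (GENCODE 29), VCAN made up 14.3% ± 3.10 of the summed level of the 4 lecticans in MPP 3D, 14.4% ± 2.06 in untreated 3D, 46.5% ± 6.14 in MPP 2D and 38.4% ± 3.85 in untreated 2D (SD, n = 4 each). NCAN made up 47.1%, 45.5%, 29.8% and 34.9% in the same groups, and BCAN 38.5%, 39.9%, 23.6% and 26.7%. The ratio of VCAN to NCAN per kilobase was 0.304 in MPP 3D, 0.319 in untreated 3D, 1.59 in MPP 2D and 1.11 in untreated 2D. Versican thus had the highest mean per length of the lecticans in 2D, with VCAN and NCAN overlapping between libraries of untreated 2D (35.4% to 43.6% and 32.2% to 36.1%), and the lowest of the 3 well-measured ones in 3D. Lengths were those of all annotated exons of a gene joined. Which transcripts of a gene were present was not measured, so these shares and ranks hold for that length only.

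**Figure D2:**
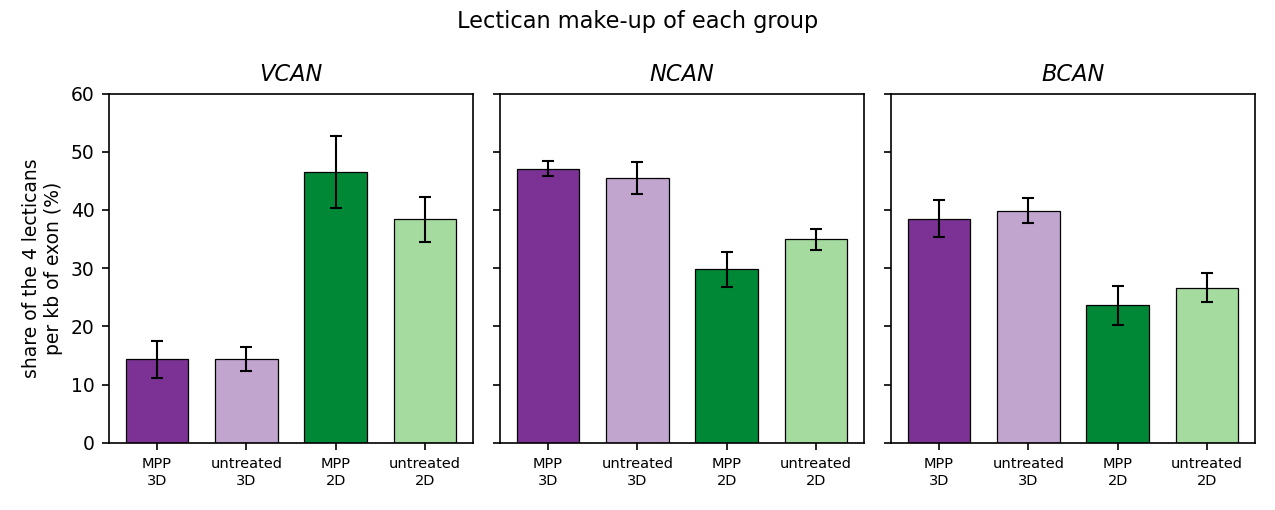
Share of VCAN, NCAN and BCAN in the summed level of the 4 lecticans per kilobase of exon (percent, bars from 0 are means over 4 libraries, error bars are SD). VCAN is 14.3% and 14.4% in the 3D groups, against 46.5% and 38.4% in the 2D groups.

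Compared per kilobase of exon, the normalised levels of the 7 genes spanned a wide range within each group. Untreated 3D had mean levels per kilobase of 248 for NCAN, 217 for BCAN, 78.2 for VCAN, 11.8 for HAS3, 6.72 for HAS2, 2.54 for CD44 and 0.958 for ACAN. In untreated 2D the order began with VCAN at 499, followed by NCAN at 450, BCAN at 342, HAS3 at 28.4, CD44 at 23.5, HAS2 at 1.40 and ACAN at 0.292. In untreated 3D the mean of CD44 per kilobase lay below those of HAS3 and HAS2, whereas in MPP 3D it was 3.53, against 11.9 for HAS3 and 2.33 for HAS2.

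The order of the 4 groups was not the same for every gene. NCAN and BCAN ran from MPP 3D through untreated 3D and MPP 2D up to untreated 2D, and in both genes each group was separate from the next. VCAN ran from MPP 3D through untreated 3D and untreated 2D up to MPP 2D, and CD44 from untreated 3D through MPP 3D and untreated 2D up to MPP 2D. For these 2 genes the groups of a culture overlapped and only the step between cultures was clear. HAS3 had its single clear step below untreated 2D, and neighbouring groups of HAS2 and of ACAN overlapped at each step.

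HAS3 (Entrez 3038, chr16:69105564-69118719, plus strand), which makes shorter hyaluronan chains, had the most reads of the synthases among the 7 genes. Its counts were 65.0, 66.0, 42.6 and 77.3 in MPP 3D, 78.1, 49.3, 50.5 and 71.6 in untreated 3D, 75.1, 61.1, 102 and 97.7 in MPP 2D, and 158, 136, 120 and 186 in untreated 2D. Only untreated 2D stood clear of the other groups. In MPP 2D the level was 1.78-fold lower than in untreated 2D (84.1 ± 19.4 against 150 ± 28.7, SD, n = 4 each; log2 difference -0.84, SE 0.247, limma adjusted p = 0.0115). This call was lost without replicate 2 of MPP 2D, at an adjusted p of 0.0507. In 3D MPP left no called difference (62.7 ± 14.5 against 62.4 ± 14.7 in untreated 3D, limma adjusted p = 0.99), and 3D did not differ from 2D with MPP at the threshold (log2 difference -0.42, SE 0.247, adjusted p = 0.192).

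The span of HAS3 overlaps CHTF8 on the other strand, with 365 exon bases in common. CHTF8 averaged 2750 ± 415 in MPP 3D, 2928 ± 492 in untreated 3D, 2649 ± 59.7 in MPP 2D and 2850 ± 107 in untreated 2D (SD, n = 4 each), many times the level of HAS3. Counting by strand is not stated in any source used, so reads of the 2 genes over these bases cannot be told apart.

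HAS2 (Entrez 3037, chr8:121612116-121641390, minus strand), the synthase of long hyaluronan chains, had 4 to 14 recovered reads per library in MPP 3D, 6 to 31 in untreated 3D, 0 to 4 in MPP 2D and 0 to 18 in untreated 2D. Untreated 3D had the highest mean normalised count, 28.1 ± 16.5, but one of its libraries lay among those of other groups. With MPP, the means were 9.76 ± 4.12 in 3D and 2.62 ± 1.93 in 2D (SD, n = 4 each), and the log2 difference of 1.71 (SE 0.797) missed the threshold at a limma adjusted p of 0.0962. The antisense gene HAS2-AS1, which shares 201 exon bases, was itself at 7 to 16 reads per library in untreated 3D and at 0 to 10 elsewhere.

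HAS1 (Entrez 3036, chr19:51713112-51723994, minus strand) is the third synthase gene and comes from the wider hyaluronan list. Its counts were 70.4, 84.8, 50.9 and 67.2 in MPP 3D and 480, 528, 445 and 483 in untreated 3D. In MPP 2D they were 11.3, 21.6, 8.91 and 22.9, and in untreated 2D 8.62, 0, 6.28 and 4.23. The 4 groups did not overlap in normalised count, in the order untreated 2D, MPP 2D, MPP 3D and untreated 3D. The step between the 2D groups was narrow, from 8.62 in replicate 1 of untreated 2D to 8.91 in replicate 3 of MPP 2D. In recovered reads these libraries held 10 and 8, the opposite order. HAS1 averaged 484 ± 34.2 in untreated 3D and 4.78 ± 3.66 in untreated 2D (SD, n = 4 each), a log2 difference of 6.79 (SE 0.491) that was 5.73 with a pseudocount of 5 in place of 1.

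MPP moved HAS1 in opposite directions in the 2 cultures. In 3D it fell to 68.3 ± 13.9 with MPP, against 484 ± 34.2 in untreated cultures (SD, n = 4 each; log2 difference -2.83, SE 0.491, limma adjusted p = 0.000109). In 2D it was 3.38-fold higher with MPP, at 16.2 ± 7.08 against 4.78 ± 3.66 (SD, n = 4 each; log2 difference 1.87, SE 0.491, adjusted p = 0.00513), on 72 reads over the MPP 2D group and 22 over the untreated one. This log2 difference was 1.16 without replicate 2 of untreated 2D, the library at 0 reads, and 1.14 with a pseudocount of 5, and it stayed past the threshold (adjusted p = 0.0119 and 0.00479). With MPP, HAS1 stayed higher in 3D than in 2D (log2 difference 2.09, SE 0.491, limma adjusted p = 0.00176). Per kilobase of exon, HAS1 was at 216 in untreated 3D and HAS3 at 11.8, whereas in untreated 2D HAS1 was at 2.13 and HAS3 at 28.4.

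**Figure D3:**
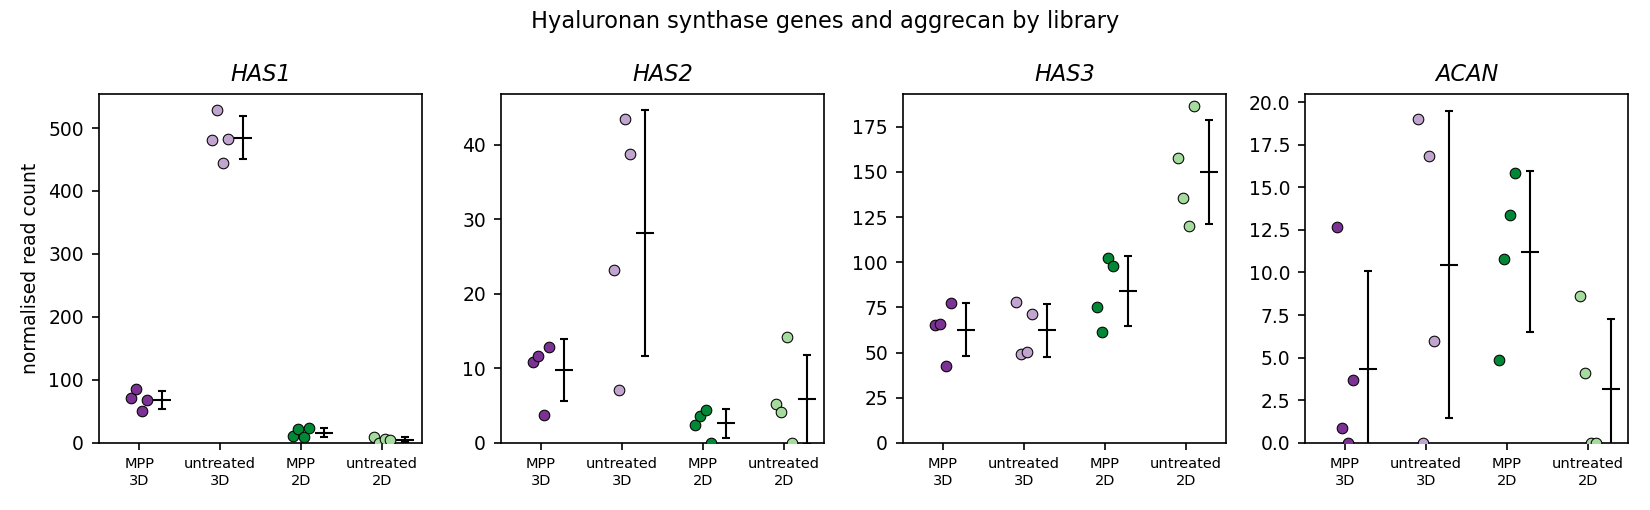
Normalised read counts of HAS1, HAS2, HAS3 and ACAN (vertical axes, each from 0) in the 4 libraries of each group (dots), with the mean ± SD beside them, the lower part of a bar ending at 0 where the SD exceeds the mean. HAS1 lies at 445 to 528 in untreated 3D and at 84.8 or less in all other libraries, HAS3 is highest in untreated 2D, and HAS2 and ACAN overlap between groups.

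With MPP in 3D, the 3 well-measured lecticans went down together. Of the 7 genes 0 rose and 3 fell, while 34.6% of all genes tested were called, 17% as higher and 17.6% as lower. VCAN averaged 831 ± 207 in MPP 3D and 1160 ± 118 in untreated 3D (SD, n = 4 each; log2 difference -0.51, SE 0.164, limma adjusted p = 0.0194). The ranges overlapped, since replicate 3 of MPP 3D, at 1058, lay above the lowest untreated 3D library, at 993. The VCAN call was lost with DESeq2 (adjusted p = 0.0696) and without replicate 2 of untreated 3D, replicate 1 of MPP 3D or replicate 2 of MPP 3D (adjusted p = 0.0542, 0.0726 and 0.0813).

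NCAN was 1.35-fold lower in MPP 3D than in untreated 3D (1269 ± 92.7 against 1711 ± 153, SD, n = 4 each; log2 difference -0.43, SE 0.0764, limma adjusted p = 0.000139). BCAN was 1.45-fold lower (739 ± 44.0 against 1072 ± 121, SD, n = 4 each; log2 difference -0.53, SE 0.0851, adjusted p = 4.47e-05). For both genes all 4 MPP 3D libraries lay below all 4 untreated 3D libraries, and both calls stayed in all 29 alternative analyses. CD44 averaged 35.3 ± 8.55 in MPP 3D and 25.4 ± 10.3 in untreated 3D, with a log2 difference of 0.55 (SE 0.283, adjusted p = 0.142) that ranged from 0.19 to 0.72 over the alternatives. HAS2 and ACAN did not pass the test either, at log2 differences of -1.29 (SE 0.797, adjusted p = 0.225) and -1.09 (SE 1.01, adjusted p = 0.433).

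With MPP in 2D, 0 of the 7 genes rose and 2 fell, NCAN and HAS3, while 34.5% of all genes tested were called, 17.7% as higher and 16.9% as lower. NCAN averaged 2643 ± 93.3 in MPP 2D and 3106 ± 165 in untreated 2D (SD, n = 4 each; log2 difference -0.23, SE 0.0764, limma adjusted p = 0.0221), and all 4 treated libraries lay below all 4 untreated ones. Its call was lost with libraries scaled to equal totals (adjusted p = 0.207) and without replicate 1 or 4 of untreated 2D or replicate 1 or 3 of MPP 2D (0.0553 to 0.0741). That scaling raised the median log2 change of all genes to 0.12, against 0.020. Mitochondrially encoded reads were 1.48% to 1.70% of MPP 2D libraries and 9.03% to 13.6% of untreated 2D libraries, and 2.53% to 2.99% of MPP 3D libraries and 3.83% to 7.97% of untreated 3D libraries, and their part in the results was not tested.

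BCAN also lay lower in all 4 MPP 2D libraries (1490 ± 95.4 against 1688 ± 48.0 in untreated 2D, SD, n = 4 each), but its log2 difference of -0.18 (SE 0.0851) missed the threshold at a limma adjusted p of 0.105. It passed with equal totals of nuclear genes (log2 difference -0.23, adjusted p = 0.0454) and with only the groups compared in the fit (adjusted p = 0.0281). CD44 averaged 279 ± 26.3 in MPP 2D and 235 ± 43.0 in untreated 2D, and VCAN 9067 ± 2477 and 7403 ± 1368 (SD, n = 4 each). Neither difference was called, at log2 differences of 0.26 (SE 0.283, adjusted p = 0.504) and 0.27 (SE 0.164, adjusted p = 0.206). ACAN, at 11.2 ± 4.72 against 3.18 ± 4.11, and HAS2, at 2.62 ± 1.93 against 5.85 ± 5.95, were not called at adjusted p of 0.115 and 0.583.

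The share of called genes that were higher depended on the scaling. With MPP in 2D it was 51.1%, 70.25% with equal library totals and 42.4% with equal totals of nuclear genes. With MPP in 3D it was 49.0%, 66.0% with equal library totals and 59.3% with equal totals of nuclear genes. For the difference of the MPP effects it was 45.7%, 43.5% with equal library totals and 66.9% with equal totals of nuclear genes. Under these scalings no tested difference of the 7 genes turned its direction.

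**Figure D4:**
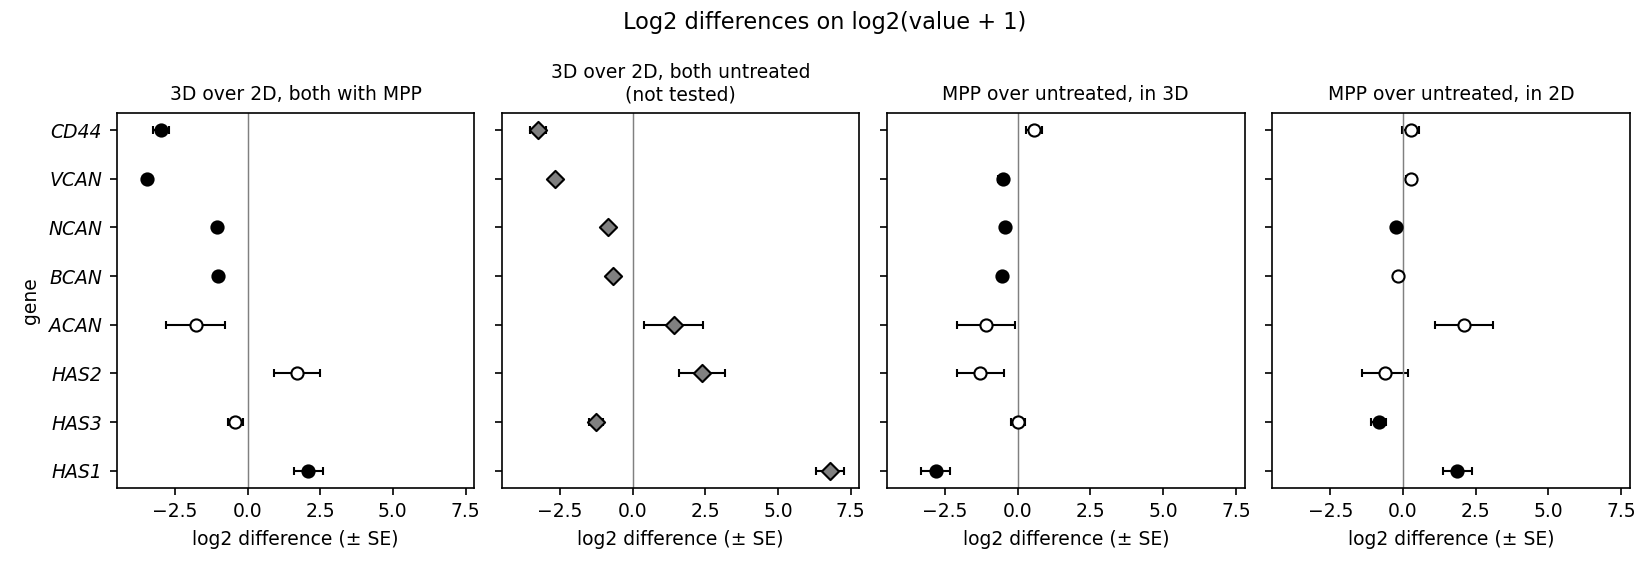
Log2 differences of the 7 genes and HAS1 in 4 comparisons (horizontal axes, log2 of the normalised count + 1, bars are ± SE from limma), with filled circles for calls at an adjusted p under 0.05, open circles for none and grey diamonds for the comparison with no test. For 3D over 2D, CD44 is at -2.97 with MPP and -3.26 untreated and VCAN at -3.44 and -2.66, while with MPP in either culture CD44, VCAN, NCAN, BCAN and HAS3 lie between -0.84 and 0.55.

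The difference between the MPP effects in 3D and in 2D was tested as an interaction. Of the 7 genes 0 were called higher and 1 lower, while 15.3% of all genes tested were called, 7% as higher and 8.32% as lower. The gene was VCAN, with a log2 MPP effect of -0.51 in 3D and 0.27 in 2D and a difference of -0.78 (SE 0.232, limma adjusted p = 0.0242). This call was lost with robust empirical Bayes (adjusted p = 0.0628), with DESeq2 (0.06) and without replicate 2 or 3 of untreated 2D or replicate 1 or 2 of MPP 3D (0.0529 to 0.0564). Without replicate 4 of MPP 2D, the high VCAN library, the difference was -0.61 with an adjusted p of 0.0488.

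BCAN had a difference of -0.35 (SE 0.12, limma adjusted p = 0.0523), which passed the threshold in 7 of 29 alternatives. NCAN had -0.20 (SE 0.108, adjusted p = 0.241), HAS3 0.84 (SE 0.349, adjusted p = 0.112) and CD44 0.28 (SE 0.401, adjusted p = 0.701). HAS2 had -0.67 (SE 1.13, adjusted p = 0.754) and ACAN -3.19 (SE 1.43, adjusted p = 0.146). For HAS1 the difference was -4.70 (SE 0.694, limma adjusted p = 3.88e-05), and it was past the threshold in all 29 alternatives, among them -3.99 without replicate 2 of untreated 2D and -3.90 with a pseudocount of 5. The 2 MPP effects and the untreated comparison share their untreated libraries.

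The other genes of hyaluronan metabolism went both ways. The counts of this and the next 4 lists stand against all genes tested, of which 19% were higher and 19.9% lower in MPP 3D than in MPP 2D, 17% and 17.6% with MPP in 3D, and 17.7% and 16.9% with MPP in 2D. Of 29 listed genes beside the 7, 24 were tested, and 6 (HAS1 among them) rose and 3 fell in MPP 3D relative to MPP 2D, with a median log2 difference of 0.039, against 0.0088 over all genes tested. GUSB, a lysosomal glucuronidase of hyaluronan breakdown, averaged 4843 ± 270 in MPP 3D and 3197 ± 131 in MPP 2D (SD, n = 4 each; log2 difference 0.60, limma adjusted p = 1.83e-06). HAPLN4, a link protein that stabilises lecticans on hyaluronan, was lower, at 405 ± 51.1 against 724 ± 38.0 (log2 difference -0.84, adjusted p = 6.08e-06). HMMR, a hyaluronan receptor and mitotic spindle protein, was also lower (498 ± 137 against 716 ± 66.3, log2 difference -0.56, adjusted p = 0.00195), although its groups overlapped.

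MPP raised 7 and lowered 3 of these 24 genes in 3D (median log2 change 0.21, against 0.0033 over all genes tested), and raised 5 and lowered 2 in 2D (0.15, against 0.020). HYAL3, of the hyaluronidase family, fell in both cultures, by 1.10 on the log2 scale in 3D (275 ± 71.1 against 577 ± 66.9, SD, n = 4 each; limma adjusted p = 3.94e-05) and by 1.35 in 2D (268 ± 57.6 against 681 ± 92.2, adjusted p = 3.28e-06). TNFAIP6, which moves inter-alpha-trypsin inhibitor heavy chains onto hyaluronan, and ITIH5, such a heavy chain, both rose in 3D, by log2 differences of 1.50 (40.7 ± 8.24 against 17.3 ± 11.2, adjusted p = 0.0102) and 0.70 (704 ± 19.3 against 433 ± 40.9, adjusted p = 1.83e-05). In untreated cultures, with no test, 4 of the 24 genes were higher and 7 lower in all 4 libraries of 3D. Over all genes tested, 19.4% were higher and 20.3% lower in this way. Among the 7 lower list genes was TNFAIP6, at 17.3 ± 11.2 in 3D and 59.5 ± 15.7 in 2D.

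Enzymes that build the chondroitin sulfate chains of lecticans also went both ways. Of 28 listed genes 25 were tested, and 5 rose and 3 fell in MPP 3D relative to MPP 2D, with a median log2 difference of 0.060. CHPF, a chondroitin polymerising factor, was higher (25639 ± 2068 against 17053 ± 428, SD, n = 4 each; log2 difference 0.59, limma adjusted p = 1.07e-06). PAPSS2, which makes the sulfate donor, was lower (110 ± 21.0 against 226 ± 21.7, log2 difference -1.05, adjusted p = 4.92e-05). In untreated cultures, with no test, 7 of the 25 were higher and 2 lower in all libraries of 3D. The shares of all genes tested were 19.4% and 20.3%. CHPF2, a relative of CHPF, was among the higher list genes, at 7393 ± 739 in 3D and 3062 ± 208 in 2D.

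MPP in 3D lowered 11 and raised 6 of these 25 genes (median log2 change -0.089), and in 2D it lowered 3 and raised 6 (-0.010). CHPF2 averaged 3265 ± 288 in MPP 3D and 7393 ± 739 in untreated 3D (SD, n = 4 each; log2 difference -1.18, limma adjusted p = 1.04e-10), and the difference of its MPP effects was -0.93 (adjusted p = 2.44e-06). CHST3, a chondroitin 6-sulfotransferase, rose with MPP in 3D (2449 ± 233 against 1323 ± 141, log2 difference 0.89, adjusted p = 4.92e-08) and in 2D (2120 ± 84.2 against 1122 ± 70.0, log2 difference 0.92, adjusted p = 4.01e-08).

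Among proteases that cleave lecticans and their inhibitors, 11 of 15 listed genes were tested, and 4 rose and 4 fell in MPP 3D relative to MPP 2D, with a median log2 difference of -0.055. ADAMTS9, a protease that cleaves versican and aggrecan, was 3.73-fold lower (2008 ± 218 against 7480 ± 1056, SD, n = 4 each; log2 difference -1.89, SE 0.11, limma adjusted p = 7.53e-12). In untreated cultures it averaged 1431 ± 234 in 3D and 6527 ± 633 in 2D.

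With MPP, 3 of these 11 genes rose and 3 fell in 3D (median log2 change -0.16), and 5 rose and 1 fell in 2D (0.21). TIMP2, a metalloproteinase inhibitor, was the most abundant of those named, and rose in 3D (88216 ± 9374 in MPP 3D, 47909 ± 5693 in untreated 3D, SD, n = 4 each; log2 difference 0.88, limma adjusted p = 3.55e-08). Its level was higher with MPP in 2D as well, by a log2 difference of 0.51. ADAMTS4, an aggrecanase that also cleaves brevican, rose in 2D (888 ± 29.4 in MPP 2D, 510 ± 80.3 in untreated 2D, log2 difference 0.81, adjusted p = 3.49e-06).

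All 14 measured partners and sheddases of CD44, of 15 listed, were tested, and 1 rose and 3 fell in MPP 3D relative to MPP 2D, with a median log2 difference of -0.056. MSN (moesin), which links CD44 to actin, averaged 306 ± 46.4 in MPP 3D and 668 ± 63.2 in MPP 2D (SD, n = 4 each; log2 difference -1.13, limma adjusted p = 5.83e-06), and 219 ± 54.6 and 478 ± 51.4 in the untreated groups of 3D and 2D. Its relative RDX (radixin) was higher in MPP 3D, by 0.25 on the log2 scale (3362 ± 277 against 2814 ± 182, adjusted p = 0.0209), with overlapping groups. With MPP, 6 of the 14 rose and 1 fell in 3D (median log2 change 0.22), and 5 rose and 3 fell in 2D (0.18). SPP1 (osteopontin), a CD44 ligand, fell in 2D (399 ± 25.9 against 639 ± 30.2, log2 difference -0.68, adjusted p = 0.00122), and LGALS9, another ligand, rose in 3D (104 ± 34.6 against 43.7 ± 8.86, log2 difference 1.20, adjusted p = 0.00243). The list had 3 calls with MPP in 3D when only the 2 groups compared were fitted.

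Of 22 listed perineuronal net and other proteoglycan genes, 21 were tested, and 3 rose and 13 fell in MPP 3D relative to MPP 2D, with a median log2 difference of -0.45, against 19% higher, 19.9% lower and a median of 0.0088 over all genes tested. TNC (tenascin-C), a binding partner of versican, was 2.94-fold lower (82.4 ± 22.7 against 242 ± 40.8, SD, n = 4 each; log2 difference -1.57, SE 0.266, limma adjusted p = 6.7e-05). SDC2 (syndecan-2), a membrane heparan sulfate proteoglycan, was higher (1181 ± 82.1 against 599 ± 59.7, log2 difference 0.98, adjusted p = 2.73e-08). In untreated cultures, with no test, 3 of the 21 genes were higher and 11 lower in all libraries of 3D, against 19.4% and 20.3% of all genes tested, and TNC averaged 55.2 ± 24.6 in 3D and 203 ± 21.3 in 2D.

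MPP raised 6 and lowered 2 of these 21 genes in 3D (median log2 change 0.26), and raised 9 and lowered 4 in 2D (-0.014). CSPG4 (NG2), a membrane chondroitin sulfate proteoglycan, rose in 3D (266.5 ± 83.6 against 141 ± 16.2, SD, n = 4 each; log2 difference 0.85, limma adjusted p = 0.00281) and in 2D (207.5 ± 27.0 against 101 ± 14.7, log2 difference 1.04, adjusted p = 0.000499). The groups in 3D overlapped.

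Most tested markers of the mesenchymal neuroblastoma state were lower in 3D with MPP, as CD44 and VCAN were. Of 18 listed markers 15 were tested, and 10 were lower and 1 higher in MPP 3D than in MPP 2D, where 19.9% of all genes tested were lower and 19% higher. The summed normalised count of the 17 measured ones was 20666 to 22138 per library in MPP 3D, 20451 to 23748 in untreated 3D, 28378 to 31313 in MPP 2D and 26147 to 28477 in untreated 2D. VIM (vimentin) averaged 3831 in MPP 3D, 4007 in untreated 3D, 6613 in MPP 2D and 5253 in untreated 2D, while PRRX1, a defining factor of that state, was at 0 in 3 groups and at 2.78 in MPP 3D. Markers of the adrenergic state were mostly lower as well. Of 12 tested, 9 were lower and 2 higher in MPP 3D than in MPP 2D. Their median log2 difference was -0.62, against -0.55 for the mesenchymal markers. In the order given for VIM, they summed per library to 231164 to 290111, 274224 to 310655, 412872 to 437126 and 522002 to 566934. Fibroblast markers, 4 of 7 tested of which were lower and 2 higher in MPP 3D than in MPP 2D, summed to 6844 to 7569, 13212 to 14210, 9260 to 10744 and 10318 to 11729 in the same order. The part of such cells in the results was not tested. The defining glial, endothelial and leukocyte genes SOX10, PECAM1 and PTPRC were at or near 0, with means of 5.05 or less in every group, but other genes of these lists were not. CD68, a lysosomal protein abundant in macrophages, averaged 1259 in MPP 3D, 1016 in untreated 3D, 250 in MPP 2D and 117 in untreated 2D, and the sum of the 3 measured immune markers was 977 to 1648, 800 to 1264, 278 to 310 and 122 to 208 per library in the same order. ERBB3, a neuregulin receptor of Schwann cells, averaged 599, 641, 697 and 563, and the glial sums were 863 to 1105, 944 to 1031, 992 to 1154 and 743 to 940. The endothelial sums were 85.8 to 190, 146 to 209, 164 to 202 and 148 to 209.

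The genes whose pattern was most like that of CD44 were ranked by Pearson's r of log2 values over the 16 libraries among 13122 genes, as a description of libraries that fall into 2 cultures. The highest were RBMS3, an RNA-binding protein (r = 0.986), NT5E, the ectoenzyme CD73 (0.983), DYNC1I1, a dynein chain (0.982), ADAMTS9 (0.982) and LUM, the small proteoglycan lumican (0.982). NT5E averaged 177 in MPP 3D, 112 in untreated 3D, 683 in MPP 2D and 691 in untreated 2D. The lowest were CABP7, a calcium-binding protein (-0.975), and TLE2, a transcriptional corepressor (-0.973).

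For VCAN the highest were ALCAM, an adhesion molecule (r = 0.994), PRSS12, a neuronal serine protease (0.991), ELAVL4, a neuronal RNA-binding protein (0.990), NEFL, the light neurofilament (0.987), and SYNPO2, an actin-binding protein (0.986). ALCAM averaged 3762 in MPP 3D, 4983 in untreated 3D, 14496 in MPP 2D and 14575 in untreated 2D. The lowest were CACNA1G, a T-type calcium channel (-0.983), and TPM1, a tropomyosin (-0.980). CD44 and VCAN had an r of 0.944 with each other. VCAN had 0.938 with NCAN and 0.895 with BCAN, while HAS1 had -0.837 with CD44.

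Promoters are shown for CD44 and VCAN, the pair of the 7 genes furthest lower in 3D, and for the 2 synthase genes that lay opposite to each other in untreated cultures, so that they can be read beside the levels. The files hold no binding or chromatin data. Promoters of 5 of the 7 genes were taken from the RefSeq promoter table (GRCh38.p14), which gives 1 start per gene. NCAN had no entry there, and HAS2 was left out. For CD44, VCAN and HAS3 the start lay inside the GENCODE span given above, and so did the 250 bases before it. The windows run over the 250 bases before the start, 5′ to 3′ on the gene's strand, at chr11:35138921-35139170 (plus) for CD44, chr5:83471494-83471743 (plus) for VCAN, chr16:69107290-69107539 (plus) for HAS3 and chr19:51723992-51724241 (minus) for HAS1. Capitals mark matches on either strand to GGGCGG (the SP1 box, seen as CCGCCC on the minus strand), ACGTG (the core of the hypoxia response element, seen as CACGT) and TGACGTCA (the cyclic AMP response element), letters chosen after the sequences had been read.
CD44: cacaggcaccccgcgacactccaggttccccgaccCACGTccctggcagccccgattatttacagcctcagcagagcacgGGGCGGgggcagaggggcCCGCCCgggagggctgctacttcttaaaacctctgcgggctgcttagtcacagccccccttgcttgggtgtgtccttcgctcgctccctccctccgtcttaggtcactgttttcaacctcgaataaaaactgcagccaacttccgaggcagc
VCAN: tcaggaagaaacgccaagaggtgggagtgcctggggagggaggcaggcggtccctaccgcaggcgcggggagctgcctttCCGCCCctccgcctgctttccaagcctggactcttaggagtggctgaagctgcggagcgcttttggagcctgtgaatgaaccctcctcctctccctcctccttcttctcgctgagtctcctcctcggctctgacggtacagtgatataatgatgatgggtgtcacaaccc
HAS3: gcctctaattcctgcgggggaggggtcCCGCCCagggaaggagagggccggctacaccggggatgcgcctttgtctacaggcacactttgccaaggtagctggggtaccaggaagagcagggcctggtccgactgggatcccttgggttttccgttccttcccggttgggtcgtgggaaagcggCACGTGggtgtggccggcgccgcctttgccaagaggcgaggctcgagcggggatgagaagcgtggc
HAS1: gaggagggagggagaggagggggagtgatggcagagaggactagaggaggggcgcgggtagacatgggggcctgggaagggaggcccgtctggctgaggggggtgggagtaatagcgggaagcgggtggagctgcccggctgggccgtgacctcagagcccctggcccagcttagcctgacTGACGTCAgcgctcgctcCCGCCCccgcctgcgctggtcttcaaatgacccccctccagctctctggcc

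GGGCGG was found in all 4 windows, and 45% of 35116 promoters of the table hold it within 250 bases before to 50 after the start. ACGTG was found at -215 to -211 of CD44, and on both strands in overlap at -66 to -61 of HAS3, and 21.4% of promoters hold it. TGACGTCA was found only in HAS1 among these 4, at -69 to -62, and 1.85% of promoters hold it. Neither TGANTCA (AP-1, in 7.71% of promoters) nor GGAATG (TEAD, in 14%) was in these windows. GC content was 63.3% for CD44, 60.3% for VCAN, 67% for HAS3 and 68.3% for HAS1 over the 300 bases, against a median of 58.7% for all promoters.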

How the data were processed

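Poly-A RNA of 16 libraries was sequenced, grouped by sample titles. Per the submitters' processing notes, the tools were STAR, featureCounts and DESeq2, beside FastQC and CASAVA 1.8.2, on GRCh38.p13. Settings, annotation and strand: not given in the sources used here. Read counts per gene divided by each library's size factor (a signal) were deposited by the authors. Whole reads were recovered from 100% of values within 0.01 reads, 24589435 to 46359070 per library. Without molecular identifiers reads are not independent, so the limit of 3 reads for a count of 0 covers counting error only, and 70.1% of recovered values of 1 to 20 reads were even numbers. Genes in the table had at least 11 reads in all. No pair of libraries within a group was alike within sampling noise (chi-square per degree of freedom 6.58 or more over 24 pairs).

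The test was limma 3.58.1 (R 4.3.3) on log2(value + 1) with its trend of variance on mean, in a joint fit of the 4 groups over all 16 libraries, for the 16984 genes that reached a value of 10 in at least 4 libraries, with Benjamini-Hochberg adjusted p under 0.05 over all of them. Log2 differences are differences of mean logs, and fold values in the text are ratios of mean normalised counts. For low genes these measures can depart from each other in either direction. Log2 differences of low genes also depend on the added 1, as the alternative pseudocounts show. The test was checked on simulated data. The alternatives were 29 per comparison, among them other scalings, pseudocounts of 0.5 and 5, other filters, DESeq2 1.42.0 and the quasi-likelihood test of edgeR 4.0.16 on recovered reads, a replicate block, and each library left out. Values were matched by symbol, and 19827 of 19898 Entrez numbers matched RefSeq. Gene spans and exon lengths came from GENCODE 29, and promoters from RefSeq.

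The 7 genes, 5 pathway lists and 7 marker lists were chosen with earlier results of these data known. Named list genes were the 2 highest and 2 lowest called log2 changes per list and comparison where the mean over libraries was at least 50, of which the text gives a part, and HAS1 is the third synthase. Genes of likeness were the 5 of highest and 2 of lowest r. HAS2-AS1, VCAN-AS1, CHTF8 and the marker genes given with their levels were named for their place or list, after values were seen.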

Additional observations from a re-analysis of the deposited data

Results flagged for a closer look

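In groups of 4 libraries, a library was singled out where it lay far from the others by Dixon's criterion, which chance alone meets in about 1 in 20 groups. This was so in 8 of 180 groups of the named genes. VCAN was at 12754 in replicate 4 of MPP 2D, against 7453 to 8205 in the other 3 libraries of that group, and it was the only such case among the 28 groups of the 7 genes. The same library was high for CHPF, at 17691 against 16774 to 16878, and for XYLT1, at 8248 against 6638 to 6899. ADAM10 was at 3297 in replicate 1 of MPP 3D, against 2649 to 2738, and PAPSS1 at 2516 in the same library, against 2798 to 2846. CSPG4 was at 165.6 in replicate 2 of untreated 3D, EGFR at 226 in replicate 3 of MPP 2D and EZR at 7395 in replicate 1 of untreated 2D.

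The effect of MPP differed between 3D and 2D by limma's test of the difference itself for VCAN, by -0.78 on the log2 scale, and for HAS1, by -4.70. This comparison was among those used to name listed genes. Each listed gene below was among its highest or lowest called changes, so these calls follow from the choice. Over all genes tested, 15.3% were called, 7% as higher and 8.32% as lower. The effect was lower in 3D for ADAMTS20 (-1.07), CHPF2 (-0.93), XYLT1 (-0.59) and SDC4 (-0.51), with limma adjusted p of 2.44e-06 to 0.00657. The effect was higher in 3D for GPC3 (0.91), HMMR (0.72), ITIH5 (0.57), DSE (0.52), SLC26A2 (0.42), NF2 (0.39) and TIMP2 (0.37), with adjusted p of 9.35e-05 to 0.0494 over these 7 genes.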

How the results depend on the processing

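Of 804 alternative values of the 7 genes in tested comparisons, 769 kept direction and side of the threshold, 16 lost the call, 12 gained one and 7 turned direction, each of these 7 in a value that was not called. The count of called genes with MPP in 2D was 2. It was 1 with equal library totals and 3 with equal totals of nuclear genes (BCAN added). It was 4 with only the groups compared (BCAN and ACAN added), and 1 to 2 with a library left out. For the difference of the MPP effects the count was 1, and it was 2 with quantile normalisation, with a mean of 50 or more and with edgeR quasi-likelihood, 0 with robust empirical Bayes and 0 to 2 with a library left out. The cause was not tested. With a library left out, the HAS3 effect of MPP in 3D lay between -0.10 and 0.18, the CD44 difference of effects between -0.074 and 0.45 and the HAS2 difference between -1.23 and 0.074. The HAS1 difference between untreated cultures was 5.73 with a pseudocount of 5 and 6.08 without replicate 2 of untreated 2D, against 6.79. ACAN and HAS2 gave no value at a mean of 50 or more. Same-numbered libraries did not deviate together across genes (r of -0.115 to 0.0896 over 24 pairs, 0 over 0.1). The labels do not say whether equal numbers mark paired cultures, and this check cannot exclude it. With the replicate number as a block, limma called 2 of the 7 genes with MPP in 2D, 3 with MPP in 3D, 4 for 3D against 2D with MPP and 1 for the difference of effects, and 0 of 28 calls changed. With the replicate block, CD44 in 3D against 2D with MPP was at -2.97 (limma adjusted p = 1.19e-07). Depth limits ACAN and HAS2, at 31 reads or fewer per library.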
